A study of Mus musculus with 9 samples.

Results

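Sprouty, Spred and Etv genes are transcribed in response to growth factor signalling through the kinase ERK, and 10 of them were followed in irradiated mouse submandibular salivary glands: Spry1, Spry2, Spry4, Spred1, Spred2, Spred3, Etv1, Etv4, Etv5 and Il17rd. They were chosen by gene name from 54532 genes in the count table, with earlier results of these same libraries already known, so the adjusted p-values below only place each gene in the fit across all genes and are not independent evidence. No measured threshold entered the choice. All 10 had enough counts to be tested, among 15224 genes that passed the filter on low counts. The glands came from wild-type (WT) mice given 10 Gy of radiation and collected 30, 60 or 90 days later, with 3 libraries at each time point. Every group was irradiated, and non-irradiated glands were not analysed here, so each comparison is between times after radiation and cannot be told apart from one between ages. The labels do not say whether the 3 samples of a time point are separate animals, so p-values measure the spread between these samples, which may be technical. Etv1 fell between 30 and 60 days, and its 90-day libraries also lay below its 30-day libraries, while Spry1 and Spred1 had their lowest values in the 60-day libraries without passing the test across all genes. Etv1 passed that test at 60 and at 90 days against 30 days. It did not pass in 7 and 4 of 17 alternative analyses, among them leaving out the first 30-day library.

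Fibroblast growth factors, epidermal growth factor and related ligands bind receptor tyrosine kinases, which switch on RAS and, through RAF and MEK, the kinase ERK. Among the genes that ERK signalling induces are its own brakes: Sprouty proteins act on the steps between the receptor and RAF, Spred proteins bring the RAS inactivator neurofibromin to the membrane, and Il17rd, also called Sef, restrains FGF receptor signalling. Etv1, Etv4 and Etv5 form the PEA3 group of ETS transcription factors, which carry the signal to the genome. In the salivary gland, FGF10 acting on FGFR2 drives branching of the embryonic epithelium, and these genes are commonly read as its outputs.

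The promoters of 3 members are printed because the libraries of these genes separated most completely between time points, a choice made after their values were seen. Each window holds the 250 bases before the start site in RefSeq (GRCm38.p6), and capitals mark GGAA or its complement TTCC, the core that ETS factors bind. Spry1 is at chr3:37639697-37639946 (plus strand), Spred1 at chr2:117120821-117121070 (plus strand) and Etv1, at the first of its 2 listed starts, at chr12:38779832-38780081 (plus strand).
Spry1: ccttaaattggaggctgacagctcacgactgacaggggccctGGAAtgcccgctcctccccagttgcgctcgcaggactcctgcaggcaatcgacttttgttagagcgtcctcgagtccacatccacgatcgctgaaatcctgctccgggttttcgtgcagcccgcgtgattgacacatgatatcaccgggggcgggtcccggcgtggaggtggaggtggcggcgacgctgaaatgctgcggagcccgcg
Spred1: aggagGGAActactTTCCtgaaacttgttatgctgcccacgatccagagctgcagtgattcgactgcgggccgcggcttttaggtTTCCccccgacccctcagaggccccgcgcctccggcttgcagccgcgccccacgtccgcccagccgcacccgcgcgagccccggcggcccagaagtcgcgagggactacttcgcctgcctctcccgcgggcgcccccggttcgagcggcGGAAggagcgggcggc
Etv1: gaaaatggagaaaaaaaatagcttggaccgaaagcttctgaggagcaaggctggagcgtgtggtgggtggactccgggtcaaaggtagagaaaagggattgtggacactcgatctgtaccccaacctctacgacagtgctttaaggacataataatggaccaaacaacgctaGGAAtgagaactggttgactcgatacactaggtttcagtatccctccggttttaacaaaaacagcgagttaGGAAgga
The Spry1 window has 1 core and overlaps an exon of Gm42922 on the other strand. The Spred1 window has 4 cores and no annotated exon, and the Etv1 window has 2 cores and no annotated exon. RefSeq promoters were found for 8 of the 10 members. A core on either strand is found in 93.4% of 32851 mouse promoters of this length, so its presence does not set these genes apart. The longer ETS motif CCGGAA, which contains the core, is found in 12% of promoters, and the AP-1 motif TGACTCA in 4.46%, counting both strands. Neither longer motif had a match in the member windows.

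Spry1 (ENSMUSG00000037211, chromosome 3, 37639947 to 37644598) encodes an inhibitor of receptor tyrosine kinase signalling. Its level was 9.14, 9.09 and 8.94 CPM (a gene's counts relative to the library total, per 1e6, after scaling between libraries) at 30 days, 7.68, 6.69 and 6.34 CPM at 60 days, and 10.0, 10.3 and 10.6 CPM at 90 days. Every 60-day library lay below every other library. The mean went from 9.06 ± 0.107 to 6.91 ± 0.696 and then 10.3 ± 0.315 CPM (SD, n = 3 each). The log2 difference was -0.39 ± 0.15 (SE) from 30 to 60 days and 0.58 ± 0.15 from 60 to 90 days, with adjusted p = 0.282 and 0.141 in edgeR's quasi-likelihood test, so neither was called at the 0.05 threshold. The spread at 60 days did not reach the other groups, but the adjustment covers all 15224 genes. The annotated exons of Spry1 share 710 bases with Gm42922 on the opposite strand, which drew 3 counts in all against 1721 for Spry1.

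Spry2 (chromosome 14, 105891947 to 105896819), a further Sprouty inhibitor, was the Sprouty gene with the highest CPM. It measured 15.2, 15.1 and 14.3 CPM at 30 days, 11.8 ± 0.351 CPM (SD, n = 3) at 60 days, and 12.1, 14.8 and 15.4 CPM at 90 days. All 60-day libraries lay below all 30-day libraries, but they overlapped the 90-day group through its first library. Between 30 and 60 days Spry2 had a log2 difference of -0.33 ± 0.13 (SE), with adjusted p = 0.297. Spry4, another inhibitor of the family, measured 2.62, 2.26 and 5.03 CPM at 30 days, 2.63, 2.08 and 1.79 CPM at 60 days, and 3.54, 3.47 and 3.41 CPM at 90 days. Its 90-day libraries all lay above its 60-day libraries, while the 30-day group was spread by the library at 5.03 CPM. The log2 difference of Spry4 between 60 and 90 days was 0.68 ± 0.29 (SE; adjusted p = 0.422). The remaining family member, Spry3, had at most 11 counts in a library and was not tested.

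Spred1 (chromosome 2, 117121374 to 117182279) encodes an adaptor that recruits neurofibromin to RAS. Its libraries measured 34.7, 36.7 and 32.0 CPM at 30 days, 25.2, 28.9 and 29.0 CPM at 60 days, and 30.9, 37.7 and 33.1 CPM at 90 days. As for Spry1, every 60-day library lay below all others. The log2 difference was -0.32 ± 0.11 (SE; adjusted p = 0.224) from 30 to 60 days and 0.29 ± 0.11 (SE; adjusted p = 0.338) from 60 to 90 days. Spred2 (chromosome 11, 19924375 to 20024026), its closest relative in level, measured 31.6, 32.3 and 33.6 CPM at 30 days, 26.2, 35 and 31.8 CPM at 60 days, and 34.1, 35.8 and 33.2 CPM at 90 days. The 60-day libraries of Spred2 enclosed the 30-day group. The 95% interval of its log2 difference from 30 to 60 days ran from -0.31 to 0.17 (adjusted p = 0.86). Spred3, the remaining Spred gene, had 4 to 41 counts per library and 0.238 to 1.38 CPM, with overlapping groups. Its exons share 202 bases with Ggn on the opposite strand, and the use of strand in counting is not given in the sources used here.

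Il17rd (chromosome 14, 27038941 to 27107286), the Sef receptor that restrains FGF signalling, had 16 to 68 counts per library. It ranged from 1.12 to 1.60 CPM at 30 days, from 0.777 to 1.36 CPM at 60 days and from 0.803 to 2.29 CPM at 90 days, and the groups overlapped. No contrast of Il17rd passed the test (adjusted p = 0.813 for any difference among the time points).

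**Figure D1:**
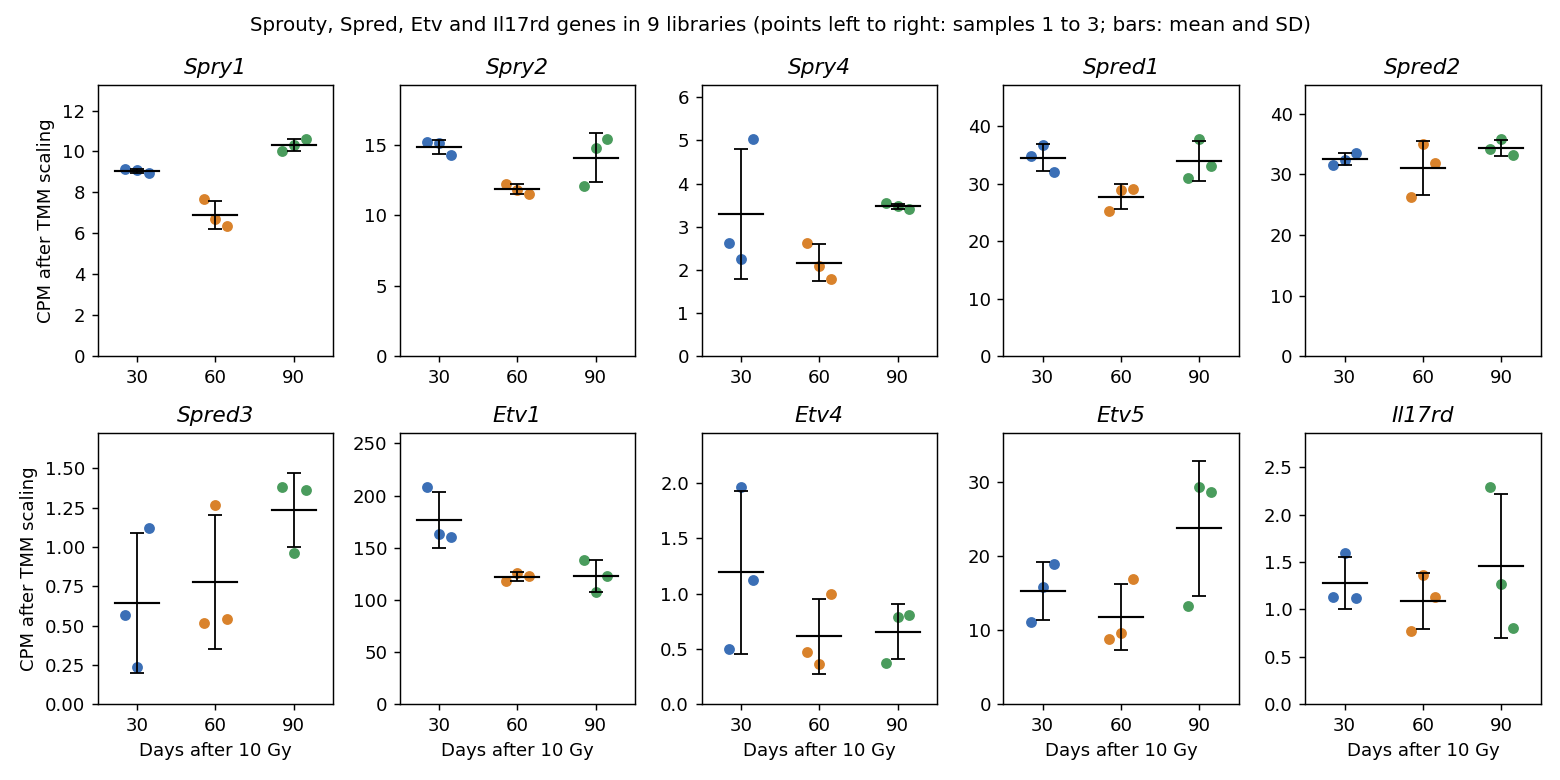
Expression of the 10 genes in CPM by days after 10 Gy, with a point for each library and a bar for the mean of 3. Etv1 was higher at 30 days (160 to 208 CPM) than at 60 days (118 to 126 CPM), and the 60-day values of Spry1 and Spred1 lay below all their other values.

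Etv1 (ENSMUSG00000004151, chromosome 12, 38779380 to 38870484) encodes the PEA3 group factor with by far the most reads, 2460 to 4091 counts per library. It measured 208, 163 and 160 CPM at 30 days, 118, 126 and 123 CPM at 60 days, and 138, 108 and 123 CPM at 90 days. All 30-day libraries lay above all later ones, and the 60-day and 90-day libraries overlapped. The mean went from 177 ± 27.2 to 123 ± 4.32 and 123 ± 15.2 CPM (SD, n = 3 each). Etv1 fell by 0.53 ± 0.12 (SE) on the log2 scale from 30 to 60 days (adjusted p = 0.0297), a level 0.693 times that at 30 days. From 30 to 90 days it fell by 0.52 ± 0.12 (SE; adjusted p = 0.0183). From 60 to 90 days the 95% interval ran from -0.25 to 0.26 (adjusted p = 0.993). Etv1 had an adjusted p of 0.0175 for any difference among the time points. With libraries scaled by their totals alone the 60-day difference was -0.46 (adjusted p = 0.238) and the 90-day difference -0.29 (adjusted p = 0.296). Under that scaling the median of all genes also moved, by 0.05 and 0.24, and relative to it Etv1 was lower by -0.51 and -0.53. The first 30-day library was the highest, and without it the log2 difference was -0.39 at both 60 days (adjusted p = 0.182) and 90 days (adjusted p = 0.129). The 60-day call was also lost without 30-day library 2 (adjusted p = 0.062), without 60-day library 1, 2 or 3 (0.0741, 0.13 and 0.0504) and without 90-day library 3 (0.0532). The 90-day call was lost without 90-day library 2 or 3 (adjusted p = 0.124 and 0.0719).

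Etv5 (chromosome 16, 22381309 to 22439719), the PEA3 group gene next in level, measured 11.1, 15.8 and 18.9 CPM at 30 days, 8.85, 9.68 and 16.9 CPM at 60 days, and 13.2, 29.3 and 28.7 CPM at 90 days. The groups overlapped, and the first library was the lowest at each time point. Between 60 and 90 days Etv5 had a log2 difference of 1.00 ± 0.38 (SE), with adjusted p = 0.427. Its biological coefficient of variation between libraries was 0.319, against 0.102 to 0.114 for Spred1, Spred2, Spry2 and Etv1. Etv4 (chromosome 11, 101769742 to 101785371), the remaining PEA3 gene, had 7 to 33 counts per library and 0.362 to 1.96 CPM, with overlapping groups and adjusted p = 0.508 for any difference. At these depths, changes in Etv4, Spred3 and Il17rd below their wide intervals were not detectable, for example -0.20 to 2.05 for Spred3 from 30 to 90 days.

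Set side by side per kilobase of exon, Etv1 had the highest level (mean 10.6, range 8.09 to 15.7 CPM per kilobase). Spred2 (7.06), Spry2 (6.52), Spred1 (4.72), Etv5 (4.13) and Spry1 (3.02) followed, and neighbours among them had overlapping ranges. Spry4 (0.627), Etv4 (0.264), Spred3 (0.142) and Il17rd (0.116) formed the low end. The ranges of neighbours did not overlap between Etv1 and Spred2 or between Spry1 and Spry4.

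**Figure D2:**
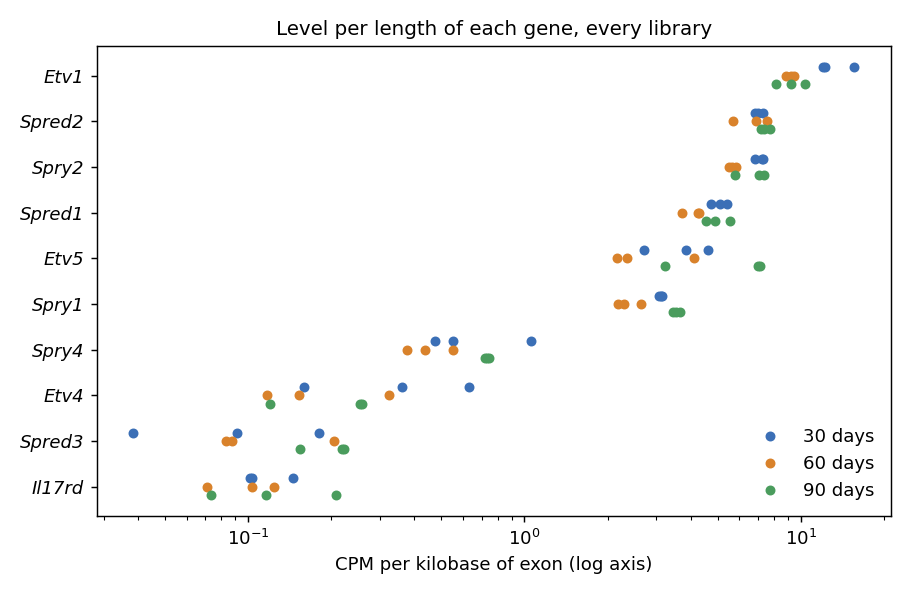
Level of each gene in CPM per kilobase of exon on a log axis, with a point for each of the 9 libraries. Etv1 stood highest at a mean of 10.6 and Il17rd lowest at 0.116.

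From 30 to 60 days, 1 of the 10 genes was called lower, Etv1, and none higher. Over all genes tested, 0.427% were called lower and 1.14% higher. The log2 difference was negative for 9 of the 10 genes, with a median of -0.35 beside 0.00 for all genes. An unadjusted p under 0.05 was found for 4 of the 10 (Spry1, Spry2, Spred1 and Etv1), beside 12.4% of all genes. In the same 4 genes all 60-day libraries lay below all 30-day libraries, which held for 8.22% of genes tested. From 60 to 90 days edgeR called none of the 10, beside 0.164% of genes called lower and 0.0920% called higher. An unadjusted p under 0.05 was found for 4 of them (Spry1, Spry4, Spred1 and Etv5), beside 10.8% of all genes. DESeq2 called 1 (Spry1, adjusted p = 0.0463) and limma-voom called 0. All 10 differences were at or above 0, with a median of 0.37 beside 0.00 for all genes, though the Etv1 difference rounds to 0.00. In 3 genes (Spry1, Spry4 and Spred1) all 90-day libraries lay above all 60-day libraries, beside 8.30% of genes. The 2 contrasts share the 60-day libraries, so their opposite signs are not separate observations.

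From 30 to 90 days, Etv1 was the 1 gene called lower, beside 1.77% of all genes lower and 1.81% higher. The median of the 10 genes was 0.07 (0.01 for all genes), with 6 positive and 4 negative. Etv1 was also the 1 member whose 90-day libraries all lay below its 30-day libraries, beside 11.8% of genes. Spry1 was the 1 member whose 90-day libraries (10.0 to 10.6 CPM) all lay above its 30-day libraries (8.94 to 9.14 CPM), beside 11.4% of genes. An unadjusted p under 0.05 was found for 1 member, Etv1, beside 16.8% of all genes. Measured as 60 days against the mean of 30 and 90 days, edgeR called none of the 10, beside 0.0525% of genes lower and 0.204% higher. Here 5 had an unadjusted p under 0.05 (Spry1, Spry2, Spry4, Spred1 and Etv1), beside 9.45% of all genes, and DESeq2 and limma-voom called 0. All 10 values were negative, with a median of -0.32 beside 0.01 for all genes. In 2 genes (Spry1 and Spred1) all 60-day libraries lay below both other groups, beside 1.90% of genes. For any difference among the time points, 1 of the 10 was called beside 3.29% of all genes.

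**Figure D3:**
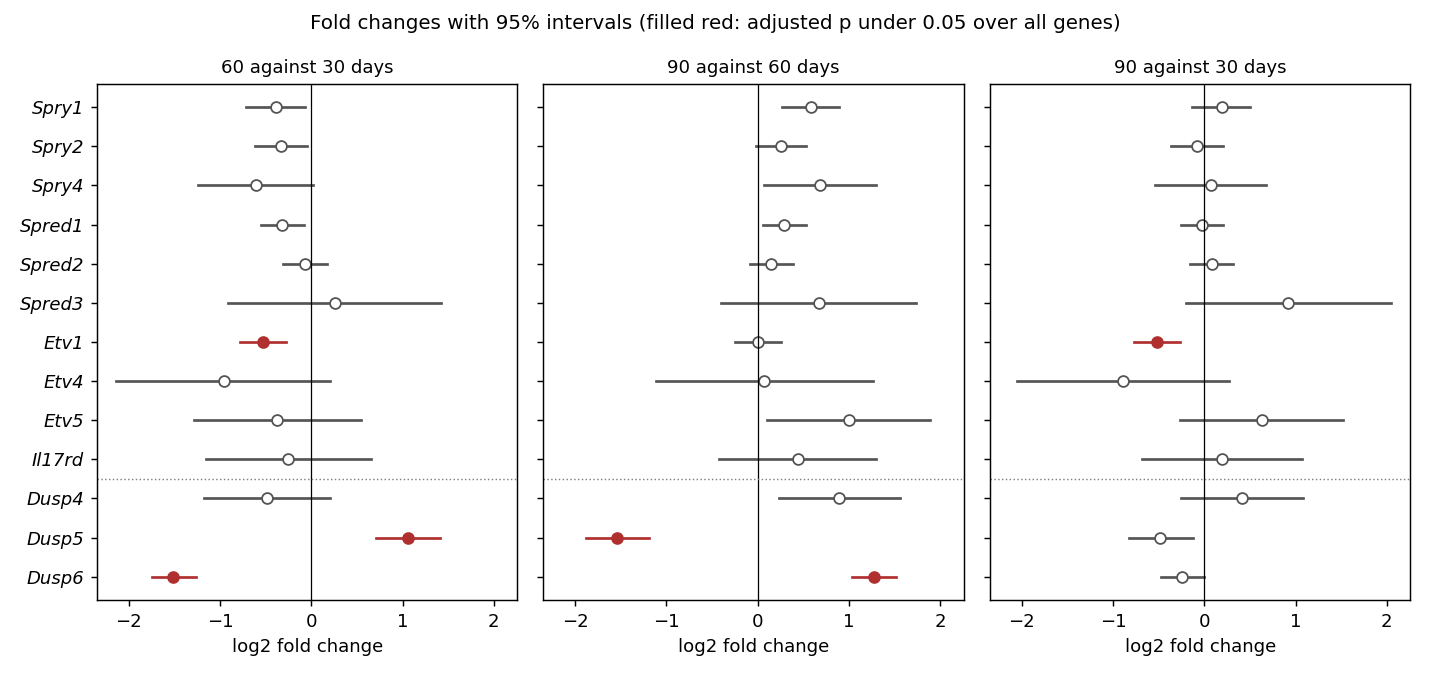
Log2 differences of the 10 genes between time points, with 95% intervals from the edgeR fit and a line at 0. Dusp4, Dusp5 and Dusp6 are drawn below a dotted line. From 30 to 60 days, 9 of the 10 values were negative, and of the 10 only Etv1 (-0.53) passed the adjusted test. Dusp5 (1.06) and Dusp6 (-1.51) passed it as well.

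Other genes that ERK signalling induces were called in both directions. Of 19 tested in a list of 20, edgeR called 3 lower and 1 higher from 30 to 60 days, with a median of -0.08. Over all genes, 0.427% were called lower and 1.14% higher. From 60 to 90 days edgeR called 1 in each direction (median 0.03), beside 0.164% of all genes lower and 0.0920% higher. From 30 to 90 days it called 1 lower (median -0.22), beside 1.77% of all genes. Dusp6, the phosphatase that removes activating phosphates from ERK in the cytoplasm, measured 114, 97.6 and 101 CPM at 30 days, 34.7, 36.5 and 38.7 at 60 days, and 75.9, 102 and 86.9 at 90 days. That pattern was known when the members were listed. Dusp5, an ERK phosphatase of the nucleus, ran the other way at 16.7, 14.9 and 14.1 CPM, then 31.5, 30.6 and 32.9, then 14.6, 9.76 and 8.13. Dusp4, a related nuclear phosphatase, passed no contrast, with a log2 difference of 0.89 from 60 to 90 days (adjusted p = 0.32). Epha2, an ephrin receptor, went from 33.7, 39.0 and 33.8 CPM to 19.4, 22.0 and 22.4 and then 20.3, 22.0 and 22.0, falling by 0.74 ± 0.11 (SE; adjusted p = 0.00166) on the log2 scale by 60 days. As for Etv1, all 60-day and 90-day libraries of Epha2 lay below all its 30-day libraries. Phlda1, a pleckstrin-homology protein named after its values were seen, fell by 0.68 ± 0.10 (SE; adjusted p = 0.00139) from 30 to 60 days.

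Few genes upstream of ERK were called, but few of all genes tested were, so this does not set them apart. Over all genes, edgeR called 0.427% lower and 1.14% higher from 30 to 60 days. The shares were 0.164% and 0.0920% from 60 to 90 days, and 1.77% and 1.81% from 30 to 90 days. For the counts at an unadjusted p under 0.05 that follow, the shares over all genes were 12.4%, 10.8% and 16.8% from 30 to 60, 60 to 90 and 30 to 90 days. Of 7 FGF ligands tested (18 listed), edgeR called 0 in the 3 pairwise contrasts, with 2, 1 and 3 at an unadjusted p under 0.05 from 30 to 60, 60 to 90 and 30 to 90 days. DESeq2 called 1, from 30 to 90 days, and limma-voom called 0. Their medians were 0.20, 0.27 and 0.52. Of 10 FGF receptors and cofactors tested (13 listed), edgeR called 0, with 1, 3 and 4 unadjusted. DESeq2 called 1 from 30 to 60 days and 1 from 30 to 90 days, and limma-voom called 0. Fgfr2, the receptor for FGF10, averaged 48.2 ± 12.9, 50.0 ± 4.32 and 33.5 ± 5.57 CPM (SD, n = 3 each), and differed by -0.58 ± 0.16 on the log2 scale between 60 and 90 days (SE; adjusted p = 0.226). Fgfr1 averaged 22.8, 23.7 and 28.5 CPM and Fgfr3 2.05, 1.51 and 3.04 CPM, and neither passed a contrast. Fgfr4 had at most 7 counts and was not tested. Of 21 other receptor tyrosine kinases tested, edgeR, DESeq2 and limma-voom called 0, with 2, 3 and 2 unadjusted.

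Of 28 genes of the cascade from RAS to ERK, 0 were called by edgeR, DESeq2 or limma-voom from 30 to 60 or 60 to 90 days (5 unadjusted in each), and 2 were lower from 30 to 90 days. Rasgrp1, a RAS activator, fell by 0.69 ± 0.13 (SE; adjusted p = 0.00549), and the adaptor Gab1 by 0.49 ± 0.11 (SE; adjusted p = 0.0176), in the contrast in which Etv1 also fell. Among 20 other inhibitors and Sprouty or Spred partners, such as neurofibromin, edgeR called 0, with 0, 1 and 3 unadjusted. DESeq2 called 1, from 30 to 90 days, and limma-voom called 0. Among 19 other ETS factors, edgeR called 0 from 30 to 60 and from 60 to 90 days (1 and 4 unadjusted, 0 by DESeq2 and limma-voom). From 30 to 90 days it called 1, Spdef, an epithelial ETS factor named after its values were seen, which fell by 0.41 ± 0.11 (SE; adjusted p = 0.0419).

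**Figure D4:**
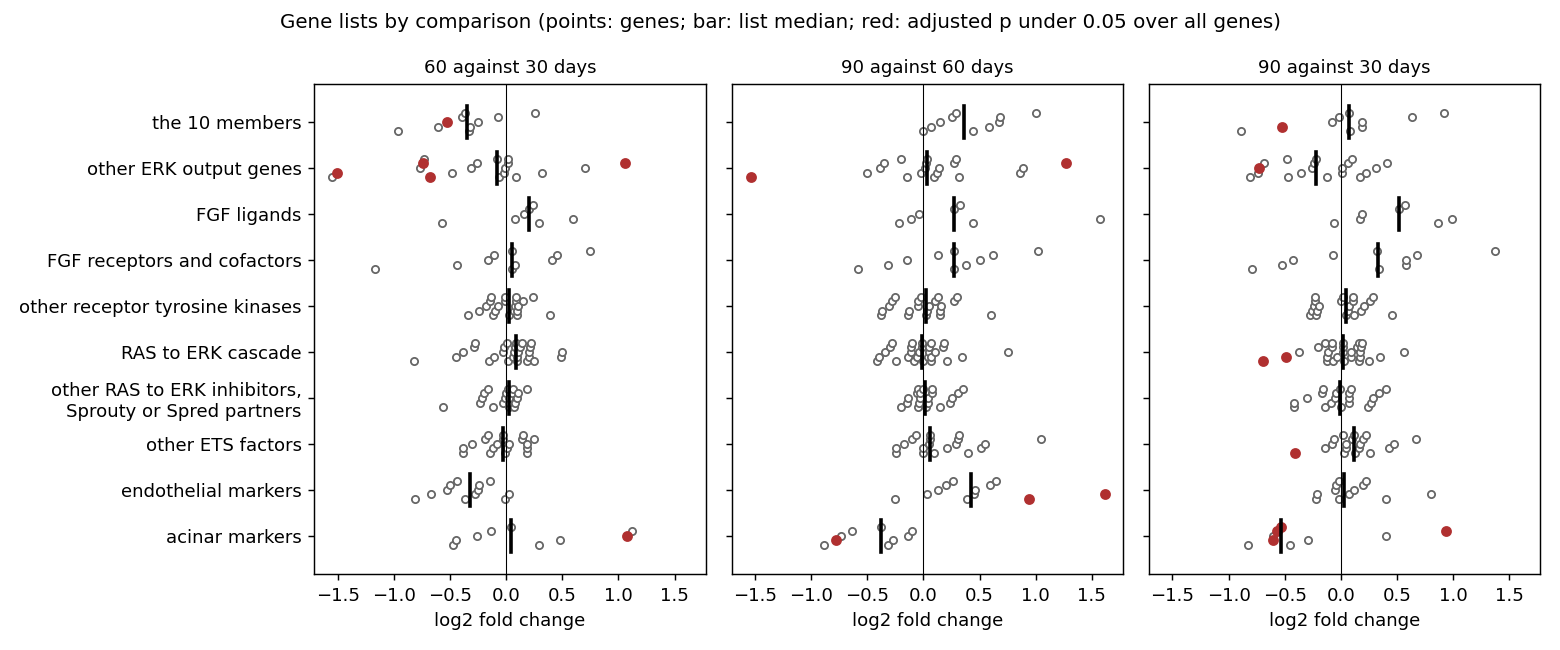
Log2 differences between time points for the 10 genes, the pathway lists and the endothelial and acinar markers. Each point is a gene, each bar a list median, and a line marks 0. From 30 to 60 and 60 to 90 days the 10 genes had medians of -0.35 and 0.37, and endothelial markers -0.33 and 0.42. Not drawn are Schwann and nerve markers (-0.25 and 0.25) and immune markers (-0.18 and 0.50).

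Marker lists of the gland's cell types are given beside these genes, since in bulk tissue fewer cells of a type and less RNA per cell cannot be told apart. The 12 endothelial markers summed to 109 to 124 CPM at 30 days, 94.9 to 101 at 60 days and 113 to 135 at 90 days, and each was detected in every library. From 30 to 60 days 11 of 12 were negative and edgeR called 0, as did DESeq2 and limma-voom. An unadjusted p under 0.05 was found for 2 of the 12, beside 12.4% of all genes. From 60 to 90 days 11 of 12 were positive and 2 rose, Sox18 (1.62, adjusted p = 0.00342) and Egfl7 (0.94, adjusted p = 0.0261). Over all genes, 0.0920% were called higher in that contrast. Like Spry1 and Spred1, the summed endothelial level was lowest in the 60-day libraries, and its part in their values was not tested. The 9 acinar markers, which define the gland's secretory cells, were also detected in every library and summed to 73229 to 129521, 69678 to 90518 and 46892 to 64128 CPM at 30, 60 and 90 days. Most of that sum was Prol1, named after its values were seen, which averaged 84800, 62000 and 47800 CPM. By gene, 5 of the 9 were positive from 30 to 60 days, and 7 were negative from 30 to 90 days. From 60 to 90 days all 9 were negative, with a median of -0.38. Aqp5, the acinar water channel, had 523, 461 and 453 CPM at 30 days, 400, 309 and 329 at 60 days, and 329, 301 and 338 at 90 days. Like Etv1 it was higher at 30 days than in every later library, with a log2 difference of -0.57 from 30 to 90 days (adjusted p = 0.0113), and its part in the Etv1 values was not tested. Chrm3, a muscarinic receptor, and Lpo, lactoperoxidase, were the other acinar markers called lower from 30 to 90 days (-0.53 and -0.60, adjusted p = 0.0148 and 0.0454), both named after their values were seen. Over all genes, 1.77% were called lower in that contrast. Bhlha15, an acinar transcription factor, was called lower from 60 to 90 days, beside 0.164% of all genes. It averaged 365, 511 and 298 CPM. Amy1, amylase, was called higher at both later times than at 30 days and averaged 7.33, 15.5 and 14.1 CPM. Among the duct markers, Egf and Ren1, both products of granular ducts, were called higher at 60 and again at 90 days than at 30 days. Over all genes, 1.14% were called higher from 30 to 60 days and 1.81% from 30 to 90 days. Egf itself is a ligand of this pathway and averaged 1320, 5830 and 5640 CPM, and its part in the Etv1 values was not tested.

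Of 10 basal and myoepithelial markers, edgeR called 2 higher from 30 to 90 days, Actg2 and Trp63, beside 1.81% of all genes. In that contrast all 10 were positive with a median of 0.44, DESeq2 called 5 and limma-voom called 1. An unadjusted p under 0.05 was found for 8, beside 16.8% of all genes. From 30 to 60 days 9 of the 10 were positive (median 0.28). There edgeR called 0, DESeq2 1 and limma-voom 0, with 4 unadjusted beside 12.4% of all genes. The 8 fibroblast, 7 Schwann and nerve, 9 immune and 2 skeletal muscle markers tested had 0 edgeR calls in the 3 pairwise contrasts. Unadjusted p under 0.05 from 30 to 60, 60 to 90 and 30 to 90 days was found for 2, 0 and 1 fibroblast markers, 0, 3 and 0 Schwann markers and 0, 4 and 2 immune markers, and for 0 muscle markers, beside 12.4%, 10.8% and 16.8% of all genes. DESeq2 called 1 immune marker in each of the latter 2 contrasts and no other of these, and limma-voom called 0. Immune markers had a median of -0.18 from 30 to 60 days, with 8 of 9 negative, and of 0.50 from 60 to 90 days, with 9 of 9 positive. In 3 of the 9 all 90-day libraries lay above all 60-day libraries, beside 8.30% of genes. The immune markers summed to 448 to 479 CPM at 60 days and 496 to 913 at 90 days. Cd74, named after its values were seen, had 292, 533 and 361 CPM at 90 days, so 90-day library 2 stood highest. So did Jchain (13.0, 52.6 and 16.9 CPM), named in the same way. Cd3d, Cd79a and Ms4a1, listed but not tested, also had their highest counts there (33, 68 and 39). Of the 10 genes, Spred1, Spred2 and Etv5 were highest in that library, Etv1 was lowest there, and the others were neither. For 60 days against the mean of 30 and 90 days, 9 of 9 were negative with a median of -0.32, as for the 10 genes, and their part in the values of those genes was not tested. Schwann and nerve markers had 6 of 7 negative from 30 to 60 days (median -0.25) and 5 of 7 positive from 60 to 90 days (median 0.25). Cd3e, of T cells, passed the test of any difference (adjusted p = 0.0432). It had 2 to 31 counts per library, and its 0.119 to 0.271 CPM at 30 and 60 days lay near a floor of 3 counts. No adipocyte marker had enough counts to test (at most 23).

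The genes with the pattern most like the most abundant member of each family were found by Pearson correlation of log2 CPM over 9 libraries, as a description. For Spry2 these were Zfp217 (0.926), H2-K2 (0.914) and Fra10ac1 (0.906). For Spred2 they were Gas8 (0.926), Scnn1a and Klra4 (0.906 each). For Etv1 they were Thyn1 (0.979), Ivd (0.974) and Vamp1 (0.963). The libraries share time point and depth, and the genes were picked from all those above 1 CPM.

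Library totals ran from 16541396 to 26065856 counts, and the 30-day libraries were the shallowest. Mucl2, a secretory gene, took 31.4% to 42.8% of counts. A floor of 3 counts corresponded to 0.101 to 0.213 CPM, and this covers counting error only.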

How the data were processed

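The labels place 9 RNA-seq libraries of mouse submandibular gland in 3 groups of 3, at 30, 60 and 90 days after 10 Gy. The authors deposited raw read counts, whole numbers for 54532 Ensembl genes. The submitters' processing notes name mm10, fastp, STAR and featureCounts, without versions or roles. The annotation, use of strand and filters are not given in the sources used here. Columns were matched to samples by day and sample number, and 3 columns that match no listed sample were not used. Positions came from GENCODE M21, which holds 54495 of the identifiers.

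Genes were kept with filterByExpr (minimum count 10), libraries scaled with TMM, and all 9 fitted together in edgeR 4.0.16 (quasi-likelihood, robust), with Benjamini-Hochberg adjustment over 15224 genes and 0.05 as the threshold. CPM is after TMM. Values of ± beside a log2 difference are SE from the fit. Named were the 10 members, Spry3, Dusp4 to Dusp6, Fgfr1 to Fgfr4, up to 3 called genes per other list with the lowest p, and 3 genes of like pattern. Genes named outside that rule are said to be. The members and lists were chosen with earlier results of these data known. On simulated data the fit recovered 57% of genes altered by a log2 of 1 and 87% of genes altered by a log2 of 2, and 5.88% of its calls were unchanged genes, for 60 against 30 days. Changes below a log2 of 1, the size of most member differences, were not simulated, so recovery at that size is not known. Alternatives were DESeq2 1.42.0, limma 3.58.1 (voom), other scalings and filters, the 6 libraries of a contrast, a replicate block and leaving out each library. R was 4.3.3. A result among the duct markers is not reported here.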

Additional observations from a re-analysis of the deposited data

How the results depend on the processing

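Etv1 was lower at 60 than at 30 days under all 17 alternatives run (log2 difference -0.60 to -0.39) and lower at 90 than at 30 days under all 17 (-0.62 to -0.29), but it lost the call in 7 and 4 of them. With library-size scaling the number of the 10 genes called was 0 from 30 to 60 days, 0 from 30 to 90 days and 0 for any difference, and Spry2 (0.14) and Spred1 (0.21) turned positive from 30 to 90 days, both below the shift of 0.24 in the median of all genes. DESeq2 called 1 gene from 60 to 90 days and 2 for any difference (Spry1 added). Leaving out each library in turn gave 0 to 1 genes from 30 to 60 days, 0 to 1 from 30 to 90 days and 0 to 2 for any difference. Sign changes on leaving out a library came in genes near 0 or with few counts, and the cause was not tested: from 30 to 60 days Spred3 ranged from -0.28 to 0.96 and Spred2 from -0.17 to 0.04; from 60 to 90 days Etv4 ranged from -0.19 to 0.61 and Il17rd from -0.06 to 0.71; from 30 to 90 days Spry4 ranged from -0.15 to 0.50, Spred1 from -0.11 to 0.04, Spry2 from -0.15 to 0.01 and Il17rd from -0.30 to 0.46. For 60 days against the mean of the others, Spred3 ranged from -0.74 to 0.15. With at least 10 counts in every library, Spred3 and Etv4 have no value, because they are removed. The labels do not say whether equal sample numbers mark matched libraries. Correlations of same-numbered libraries ran from -0.06 to 0.191, and 1 of 9 pairs was over 0.1. Of the 9 libraries, 4 correlated best with their own number. Low correlations over all genes cannot exclude matching. With a replicate block, Etv5 was called from 60 to 90 days (0.98, adjusted p = 0.00888) and from 30 to 90 days (0.60, adjusted p = 0.0453), which gave 1, 2 and 2 genes called from 60 to 90 days, from 30 to 90 days and for any difference. Mean levels of the 10 genes moved by less than 1 SD with library-size CPM.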
